A study of Mus musculus with 6 samples.

Results

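The 10 genes described here encode proteins of the BCL2 family, which decides at the mitochondrial outer membrane whether a stressed cell starts to die. They were the rows of the expression table with the symbols Bcl2, Bcl2l1, Mcl1, Bax, Bak1, Bbc3, Pmaip1, Bcl2l11, Bid and Bmf, and all 10 were found among 22564 genes. The cells were the mouse endothelioma line EOMA, grown in normal oxygen in medium with serum. One group received the solvent DMSO for 24 h (n = 3 libraries, labelled NC) and the other received 2 µM DHTS in the same period (n = 3 libraries). DHTS is 15,16-dihydrotanshinone I, a tanshinone of Salvia miltiorrhiza, and the series title places the work in the study of infantile hemangioma. The labels do not say that the libraries are separate cultures. Every p-value here therefore measures the spread between libraries, which may be technical.

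The family falls into roles that are held in check by one another. Guard proteins (BCL2, BCL-XL encoded by Bcl2l1, and MCL1) bind and silence their relatives. Pore formers (BAX and BAK) assemble in the outer membrane, let cytochrome c out and so set off the caspases. BH3-only proteins are the stress sensors: PUMA (encoded by Bbc3), NOXA (Pmaip1), BIM (Bcl2l11), BID and BMF occupy the guards or push the pore formers into action. Bax, Bbc3 and Pmaip1 are textbook targets of p53, the transcription factor that responds to DNA damage.

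Libraries held 9343189 to 12255283 estimated fragments. Levels are FPKM, fragments scaled to transcript length and library size, so levels of different genes can be set side by side. Fold changes are differences of log2(FPKM + 1), DHTS against DMSO, which understate the change of low genes. Adjusted p-values are from limma over the 11416 genes with a mean of at least 1 FPKM, and the threshold is 0.05. A 0 in the table need not mean absence. One merged locus of 75 genes is listed at 0 in every DMSO library, among them the ribosomal protein gene Rpl13, which stands at 1196 to 1214 FPKM with DHTS. Of these 75 genes 52 were tested and all 52 count as higher, and none is a member, list gene or marker used here. The defining endothelial markers were at or near 0. Cdh5, Kdr, Tie1 and Tek, none of which lies in a merged locus, were listed at 0 in every DMSO library, and with DHTS, where that locus has values, they did not exceed 0.0926 FPKM. With DMSO, Pecam1 stood at 0.178 ± 0.0719 FPKM (SD, n = 3), although Cd34 stood at 77.6 ± 2.90 FPKM. A mean of 1 FPKM was reached by 9 of the 30 genes on the endothelial list and by 11 of the 16 on the epithelial list. Summed over the list, epithelial markers ran from 244 to 249.9 FPKM with DMSO and from 301 to 304 FPKM with DHTS. Krt18 alone went from 136 ± 2.79 to 197 ± 4.89 FPKM, while Epcam (24.2 to 17.3 FPKM) and Elf3 (34.9 to 19.6 FPKM) were among 3 of the 11 with a lower mean. Endothelial markers summed to between 176 and 182 FPKM with DMSO and to between 209.9 and 236 FPKM with DHTS. Cd34 (to 102.1 ± 4.21 FPKM) and Ets1 (40.6 to 59.5 FPKM) had the largest gains, and 4 of the 9 (Flt1, Ecscr, Egfl7 and Plvap) had a lower mean. Fibroblast and smooth muscle markers (2 of 12 reaching 1 FPKM) and immune markers (2 of 9 in the table) summed to less with DHTS, 21.0 to 22.3 against 32.0 to 34.3 FPKM and 27.2 to 31.0 against 41.8 to 46.9 FPKM. The part that these shifts may have in the results below was not tested.

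DHTS changed 8 of the 10 genes, 4 upward and 4 downward, and each role held genes that rose and genes that fell. Pmaip1, Bbc3, Bax and Mcl1 were higher, while Bmf, Bcl2, Bak1 and Bid were lower. Bcl2l1 and Bcl2l11 did not pass. These counts stand against a broad response: 50.1% of all tested genes passed, 28.2% higher and 21.9% lower. Without the locus at 0, 49.9% passed and each member's call was as before. The groups did not overlap in 8 of the 10 genes, against 59.8% of all tested genes. The median log2 fold change of the 10 was 0.10, beside 0.03 for all tested genes, and the median absolute change was 0.37, beside 0.25. In bulk RNA, a change in every cell cannot be told apart from a change in the share of cells that hold the transcript.

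**Figure D1:**
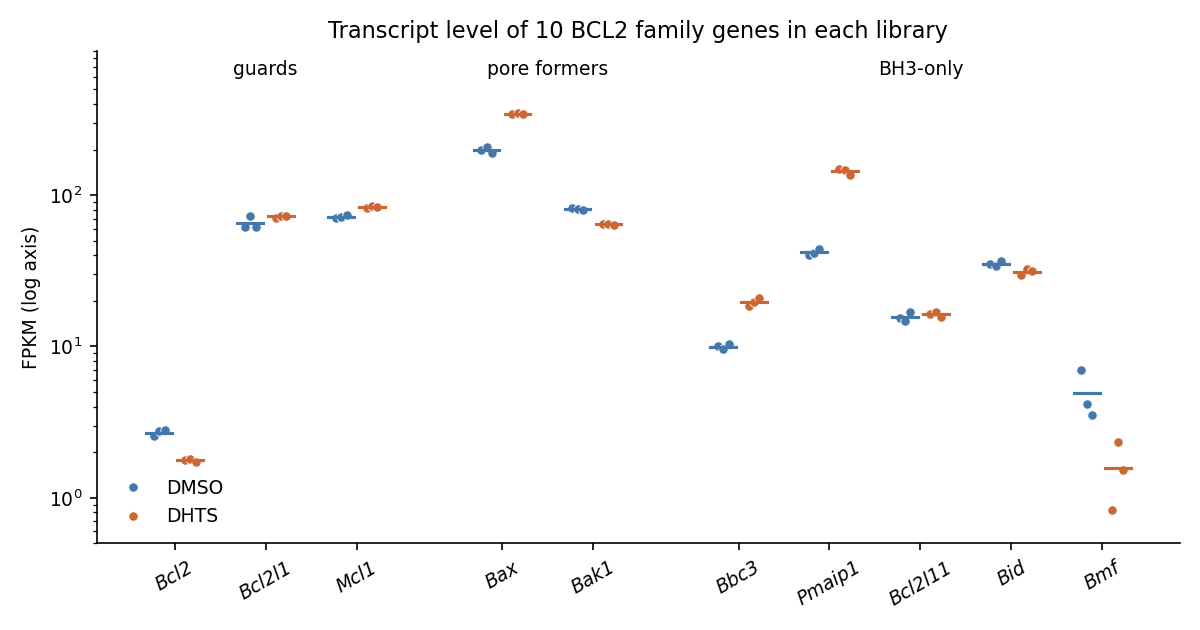
FPKM (log axis) of each gene in each library, with DMSO in blue and DHTS in orange; points are libraries and bars are group means. Bax, Pmaip1 and Bbc3 stand clearly higher with DHTS, Bcl2 and Bmf lower, and the groups of Bcl2l1 and Bcl2l11 overlap.

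Start-site sequences are shown for Bax and Bbc3, which rose and lie on chromosome 7, and for Bmf, which fell. Of the windows searched, those shown are the ones that held a match by the rules below. They were searched for the p53 decamer because Bax and Bbc3 are textbook targets of p53. Whether p53 acts through the stretches marked below was not tested. The windows are RefSeq's (GRCm38.p6), 250 bases before to 50 after a transcript start, printed on the gene's strand. A perfect match to the p53 consensus decamer, which reads alike on both strands, was found in 2 of the 16 windows of the 9 genes searched (all but Pmaip1), against 8.36% of 32851 windows of all genes. Capitals mark the decamer in Bax (first base 201 bases before the start) and Bmf (213 bases before). In Bbc3 no perfect decamer was present, and capitals mark the 20 bases nearest to a pair of adjacent decamers, with 3 mismatches, beginning 97 bases before the start. The Bbc3 windows not shown had 5 and 6 mismatches at their closest. A pair of decamers with at most 3 mismatches occurred in 6.29% of all windows, and in 2 of the 16 (1 of Bax, 1 of Bbc3). In Bax those 20 bases begin 211 bases before the start and include the decamer.
Bax, chr7:45466849-45467148, minus strand: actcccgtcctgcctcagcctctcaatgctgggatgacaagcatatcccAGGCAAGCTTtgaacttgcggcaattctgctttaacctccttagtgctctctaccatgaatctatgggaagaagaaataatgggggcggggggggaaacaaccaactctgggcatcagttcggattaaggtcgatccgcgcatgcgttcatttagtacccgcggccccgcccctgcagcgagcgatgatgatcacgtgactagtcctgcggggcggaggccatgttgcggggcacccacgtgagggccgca
Bbc3, chr7:16309333-16309632, plus strand: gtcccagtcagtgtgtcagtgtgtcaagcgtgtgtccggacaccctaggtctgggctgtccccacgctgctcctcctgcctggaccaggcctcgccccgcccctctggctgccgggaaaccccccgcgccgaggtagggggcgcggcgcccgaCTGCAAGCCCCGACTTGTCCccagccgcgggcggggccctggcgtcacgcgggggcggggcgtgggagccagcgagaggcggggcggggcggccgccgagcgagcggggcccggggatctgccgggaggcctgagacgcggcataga
Bmf, chr2:118544538-118544837, minus strand: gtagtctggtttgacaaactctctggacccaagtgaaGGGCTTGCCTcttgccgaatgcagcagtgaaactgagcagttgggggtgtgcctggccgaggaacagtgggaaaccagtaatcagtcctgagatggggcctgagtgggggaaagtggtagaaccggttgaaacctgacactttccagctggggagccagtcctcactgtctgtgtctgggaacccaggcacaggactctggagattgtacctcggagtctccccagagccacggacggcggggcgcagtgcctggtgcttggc
Bmf has 3 start-site windows and the decamer lay in 1 of them, so the match was found beside a gene that fell as well as beside one that rose. A match of letters is a description and shows no binding.

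Among the guards, the levels of Mcl1 and Bcl2 moved in opposite directions. Mcl1, whose short-lived protein restrains BAK and is the main partner of NOXA, lies on chromosome 3 at 95658788 to 95663176 (mm10). The DMSO libraries held 71.0, 71.5 and 73.8 FPKM, and the DHTS libraries 82.4, 85.1 and 83.3 FPKM. Every treated library was above every control library, by a modest margin. The log2 fold change was 0.21 (SE 0.04, adjusted p = 0.0023). The deposited table places Mcl1 in a merged locus of 33 genes.

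Bcl2, the founding guard of the family, on chromosome 1 at 106538178 to 106714274, was scarce in these cells. Its levels were 2.56, 2.75 and 2.79 FPKM with DMSO, then 1.79, 1.804 and 1.74 FPKM with DHTS, from 121 to 255 estimated fragments per library. All treated libraries lay below all controls, with a log2 fold change of −0.41 (SE 0.09, adjusted p = 0.0092). The treated mean was 0.658 times the control mean.

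Bcl2l1, on chromosome 2 at 152780668 to 152831728, encodes BCL-XL, a guard that holds both pore formers. Control libraries held 61.7, 72.5 and 61.9 FPKM, and treated libraries 70.8, 73.0 and 73.3 FPKM. One control library sat among the treated ones, so the groups overlapped. Bcl2l1 changed by 0.15 on the log2 scale, with a 95% interval from −0.01 to 0.31 (adjusted p = 0.10). Without DMSO replicate 2, the library that overlapped, it passed (0.23, adjusted p = 0.0073). It did not pass with any other library left out (adjusted p = 0.15 to 0.26).

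Mcl1 and Bcl2l1 were the most abundant of the 3 guards. Mcl1 was 51.5 ± 2.44% of the sum of these 3 with DMSO and 52.99 ± 0.335% with DHTS. Bcl2 was 1.93 ± 0.0750% and 1.13 ± 0.0282%. The 3 together summed to 140.1 ± 5.90 and 158 ± 2.48 FPKM. Bcl2l2, which encodes the guard BCL-W and is not among the 10, stood at 20.07 ± 0.425 and 21.3 ± 1.77 FPKM, above Bcl2 in both groups, and did not pass.

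The pore formers moved in opposite directions, Bax up and Bak1 down. Bax, on chromosome 7 at 45461697 to 45466898, was the most abundant of the 10 genes in both groups. Its level was 199.7, 207 and 191 FPKM in the controls against 343, 347 and 341 FPKM after DHTS. The treated libraries were close to each other and far above the controls. The log2 fold change was 0.78 (SE 0.04, adjusted p = 4.4e-06), and the treated mean was 1.72 times the control mean. Bax rests on 1251 to 2365 estimated fragments per library, and 192 of its 1576 exon bases are shared with Gm45808 on the same strand.

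Bak1, on chromosome 17 at 27019810 to 27029009, encodes BAK, which sits in the outer membrane before any stress arrives. It fell from 82.5, 81.4 and 79.3 FPKM to 64.8, 64.8 and 63.2 FPKM. The groups were well apart and each was tight, at a log2 fold change of −0.33 (SE 0.04, adjusted p = 0.00027). Exons of Bak1 share 614 bases with genes named Ggnbp1 on the opposite strand, and no source used here says whether counting took account of strand. The Ggnbp1 gene that the table lists stood at 4.77 to 8.69 FPKM over the 6 libraries, and Bak1 belongs to a merged locus of 9 genes.

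Within each library, Bax was 2.46 ± 0.0776 times the level of Bak1 with DMSO and 5.35 ± 0.0572 times with DHTS. Bax thereby went from 71.1 ± 0.641% to 84.2 ± 0.142% of the sum of the pair.

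The BH3-only genes held the largest rise and the largest fall of the 10. Pmaip1, which encodes NOXA, a selective binder of MCL1, lies on chromosome 18 at 66458533 to 66465565. It went from 40.3, 41.5 and 44.2 FPKM to 148, 147 and 137 FPKM. No treated library came near a control. Pmaip1 rose by 1.75 on the log2 scale (SE 0.05, adjusted p = 5.5e-07). The treated mean was 3.43 times the control mean, and 249 of the 11416 tested genes had a larger rise (197 without the locus at 0). Each library held 1036 to 4169 estimated fragments of Pmaip1.

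Bbc3, which encodes PUMA, a binder of every guard, lies on chromosome 7 at 16308393 to 16318205. It rose from 10.03, 9.62 and 10.3 FPKM to 18.6, 19.8 and 20.8 FPKM. All treated libraries stood well above the controls, and their mean was 1.97 times the control mean. That is a log2 fold change of 0.91 (SE 0.07, adjusted p = 3.7e-05), with 140 to 321 estimated fragments per library.

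Bmf encodes a BH3-only protein that is tethered to the actin-linked motor machinery through a dynein light chain. The gene, on chromosome 2 at 118528757 to 118549687, measured 7.01, 4.18 and 3.53 FPKM in controls against 0.834, 2.34 and 1.52 FPKM in treated libraries. The groups did not overlap, but each was spread widely. Bmf changed by −1.20 on the log2 scale (SE 0.28, adjusted p = 0.01), and 123 tested genes had a larger fall.

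Bid, whose protein is cut by caspase-8 and so links death receptors to mitochondria, lies on chromosome 6 at 120891930 to 120916853. It went from 35.2, 34.2 and 36.5 FPKM to 29.7, 32.4 and 31.7 FPKM. The groups were apart by a narrow gap, and the log2 fold change was −0.17 (SE 0.05, adjusted p = 0.031). The Bid call was lost with a replicate block (adjusted p = 0.056) and without DMSO replicate 1 (0.07), DMSO replicate 3 (0.098), DHTS replicate 1 (0.092) or DHTS replicate 3 (0.057). Bid shares 628 exon bases and its deposited locus with Bcl2l13 on the opposite strand, which stood at 14.6 to 15.3 FPKM with DMSO and 13.2 to 13.3 FPKM with DHTS.

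Bcl2l11 encodes BIM, which, like BMF, binds a dynein light chain. On chromosome 2 at 128126038 to 128162547, it measured 15.5, 14.8 and 16.8 FPKM in controls against 16.5, 16.8 and 15.7 FPKM in treated libraries. The groups overlapped. The log2 fold change was 0.05, with a 95% interval from −0.10 to 0.21 (adjusted p = 0.53), and it was −0.060 under quantile normalization.

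**Figure D2:**
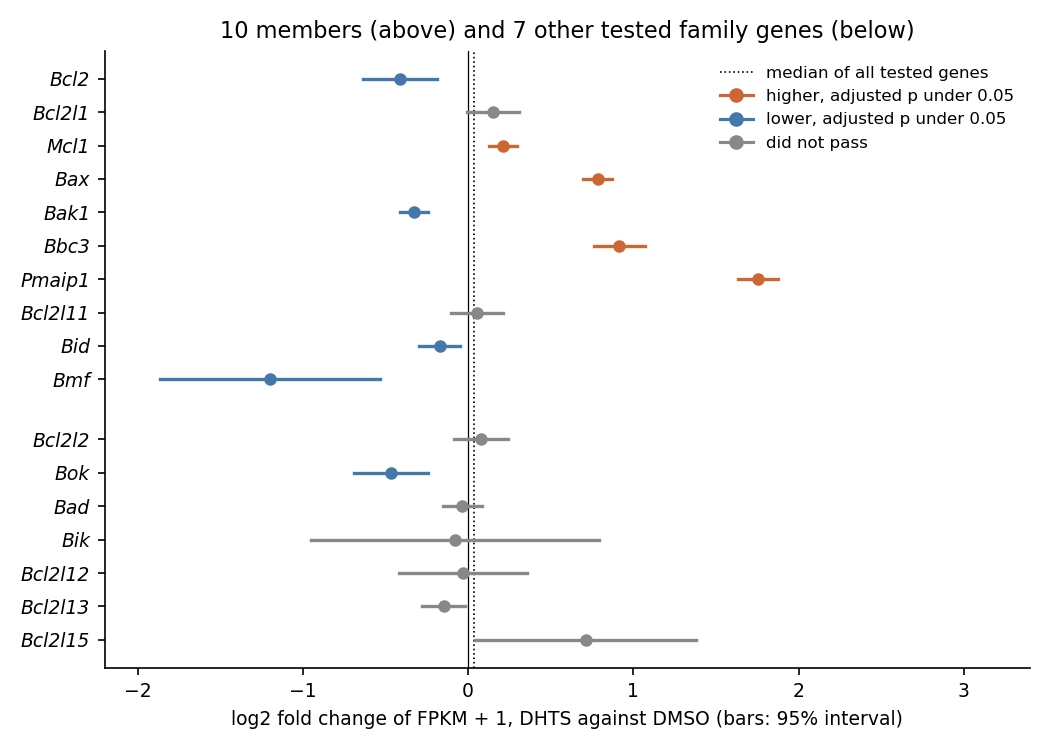
Log2 fold change of FPKM + 1 with its 95% interval for the 10 genes (above) and for 7 other tested genes of the family (below); orange and blue mark genes that passed upward and downward, grey those that did not, and the dotted line is the median of all tested genes. Pmaip1 at 1.75 and Bmf at −1.20 are the extremes, and Bmf has the widest interval of the 10.

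Bax led the order of levels in both groups, and Pmaip1, Bak1 and Bbc3 changed places. With DMSO it ran Bax, Bak1, Mcl1, Bcl2l1, Pmaip1, Bid, Bcl2l11, Bbc3, Bmf and Bcl2, and the only neighbours whose libraries overlapped were Mcl1 and Bcl2l1. With DHTS it ran Bax, Pmaip1, Mcl1, Bcl2l1, Bak1, Bid, Bbc3, Bcl2l11, Bcl2 and Bmf, and the only neighbours that overlapped were Bcl2 and Bmf. Pmaip1 thus moved from rank 5 to rank 2, Bak1 from 2 to 5, and Bbc3 passed Bcl2l11.

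**Figure D3:**
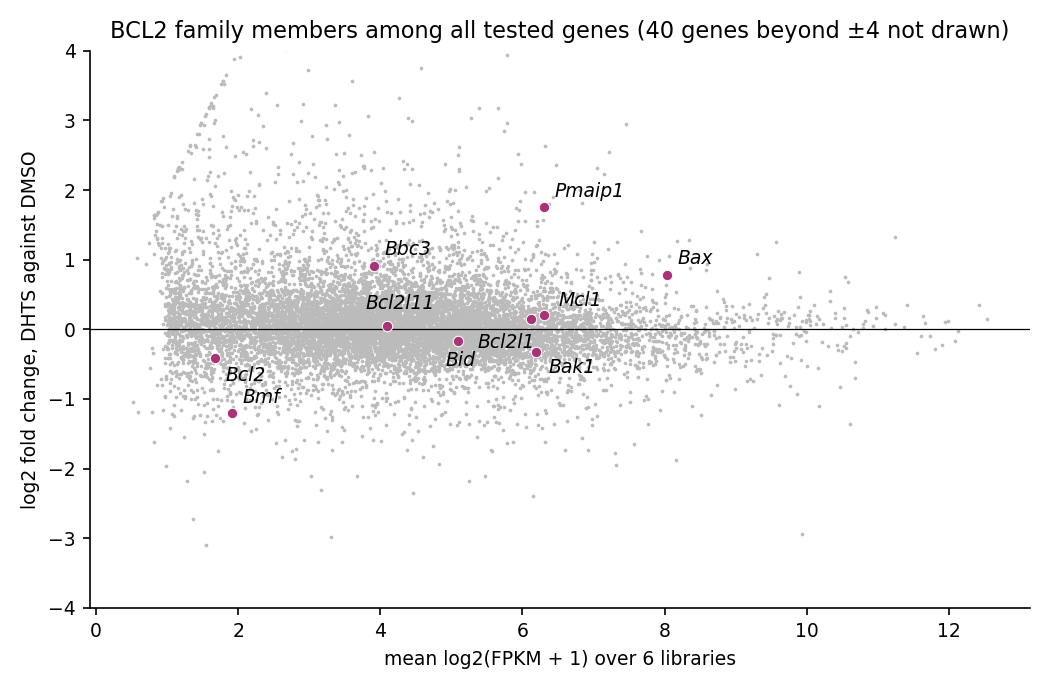
Mean log2(FPKM + 1) over the 6 libraries (horizontal) against log2 fold change (vertical) for every tested gene in grey, with the 10 members named; 40 genes beyond a change of 4 (6 without the locus at 0 in DMSO) are not drawn. Without that locus, 197 genes lie above Pmaip1 and 955 above Bax, 123 lie below Bmf, and Bcl2l11 lies close to 0.

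Summed by role over the 10 members, the BH3-only genes changed most. Their FPKM added up to 108, 104 and 111 with DMSO and to 213, 219 and 207 with DHTS. Pmaip1 alone accounted for 38.9 ± 1.41% of that sum with DMSO and 67.6 ± 1.53% with DHTS. The pore formers summed to 282, 289 and 270.4 FPKM with DMSO and to 407, 412 and 405 FPKM with DHTS. Guard message was 1.30 ± 0.0912 times the BH3-only message with DMSO and 0.741 ± 0.0219 times with DHTS. The sums depend on which genes are counted. Bad, a BH3-only gene outside the 10, stood at 54.7 ± 3.11 FPKM with DMSO, above Pmaip1, and at 53.3 ± 0.580 FPKM with DHTS. With Bad, Bik and Hrk among the BH3-only genes and Bcl2l2, the Bcl2a1 genes and Bcl2l10 among the guards, the ratio of guards to BH3-only genes was 0.966 ± 0.0392 with DMSO and 0.665 ± 0.0288 with DHTS. Guard message thus did not exceed BH3-only message in either group's mean. Pmaip1 was then 25.3 ± 0.990% and 53.4 ± 0.970% of the BH3-only sum. These sums take transcript levels only, and no test was made on them because the genes were chosen with earlier results known.

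The ratio of Bax to Bcl2, an index often read from protein or message, was 78.0, 75.5 and 68.6 in the DMSO libraries and 192, 192 and 197 in the DHTS libraries. Both of its terms moved, and the mean ratio with DHTS was 2.62 times that with DMSO. The ratio of Bax to Mcl1 was lower and moved less, from 2.77 ± 0.161 to 4.11 ± 0.0398. Mcl1 had the highest mean of the guards in both groups, but its DMSO libraries overlapped those of Bcl2l1.

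**Figure D4:**
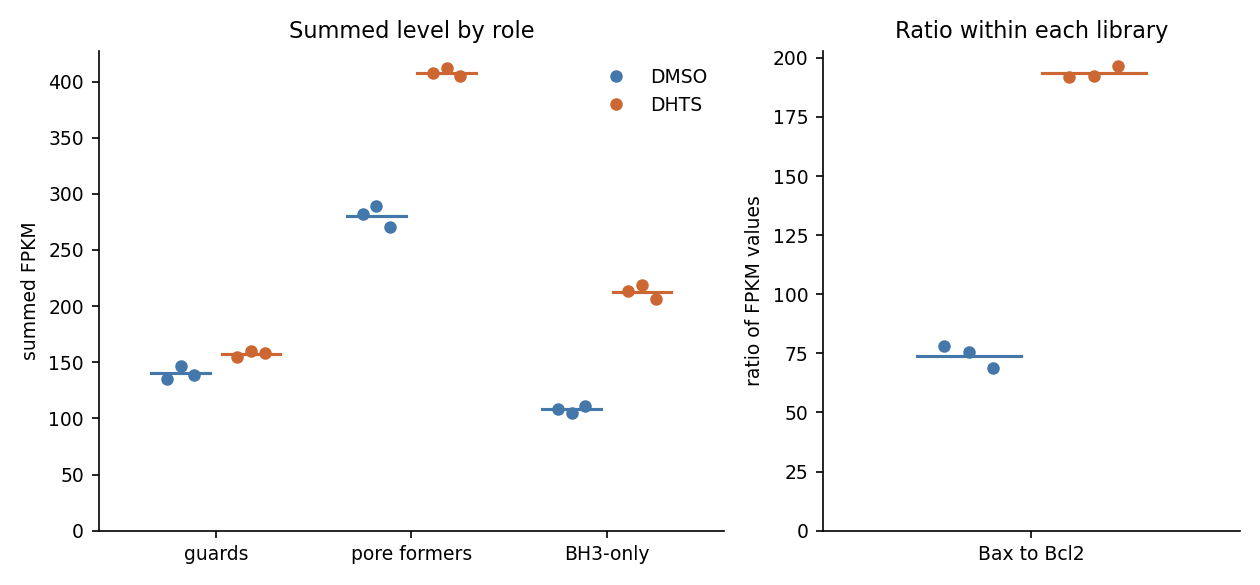
Left, summed FPKM of the member guards, pore formers and BH3-only genes in each library; right, the ratio of Bax to Bcl2 FPKM in each library; bars are group means. The BH3-only sum goes from 108 ± 3.53 to 213 ± 6.08 FPKM, the guard sum from 140.1 to 158 FPKM, and the ratio from 74.0 ± 4.88 to 194 ± 2.61.

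The table also holds estimated fragments scaled to a common library size, which are not divided by transcript length. Their ratio to FPKM is the same in every library of a gene that is given 1 length throughout. Scaled fragments per unit of FPKM were nearly constant for Bcl2, Mcl1 and Pmaip1, where the highest library was 1.00, 1.01 and 1.01 times the lowest. For Bmf they ran from 23.9 to 47.3, a ratio of 1.98, which 3.28% of tested genes exceeded. The GENCODE annotation gives Bmf 2 protein-coding transcripts, of 3078 and 4642 bases. Whether these lengths account for the spread of that ratio was not tested.

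On the fragment scale Bmf scattered less within groups and had a smaller SE. Its scaled fragments were 187, 168 and 134 with DMSO and 39.4, 55.8 and 57.5 with DHTS. Relative to their spread, the groups stood further apart than in FPKM. The log2 fold change was −1.67 (SE 0.17, adjusted p = 1.6e-08). The FPKM value depended on the pseudocount, being −1.20 in the main fit and −1.63 (SE 0.40) with a pseudocount of 0.1. A larger fall on the fragment scale is therefore not shown. For Bcl2l1 the scaled fragments were 1352, 1462 and 1362 with DMSO and 1682, 1654 and 1612 with DHTS, which do not overlap, and it passed on this scale (0.25, adjusted p = 3.2e-05). With it, 5 members were higher and 4 lower on scaled fragments, where 62.5% of all tested genes passed. Which of the measures is nearer to the amount of message was not tested.

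**Figure D5:**
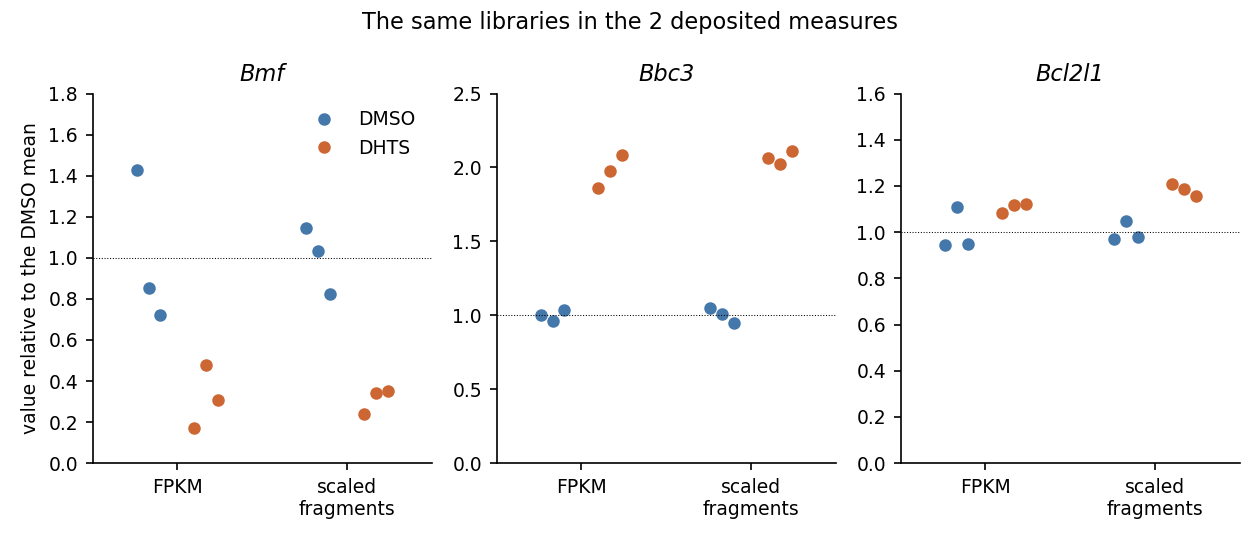
Bmf, Bbc3 and Bcl2l1 in each library, as FPKM and as scaled fragments, each divided by its DMSO mean (dotted line at 1). Bmf libraries scatter widely in FPKM and less in scaled fragments, Bbc3 rises about 2-fold in both, and the Bcl2l1 groups overlap in FPKM only.

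Of 14 other BCL2 family genes 7 were tested, 1 was lower and 0 higher, where 21.9% and 28.2% of all tested genes were, with a median log2 fold change of −0.04. The one that fell was Bok, a relative of BAX and BAK, from 31.6, 32.7 and 32.7 FPKM to 26.7, 22.7 and 20.3 FPKM (−0.47, SE 0.09, adjusted p = 0.0055). Among the untested genes, 4 (Bcl2a1b, Bcl2a1c, Bcl2a1d and Bcl2l10) were listed at 0 throughout.

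Genes of the mitochondrial membrane and of the proteins released from it came to 18 tested, of which 1 rose and 7 fell (median −0.11), beside 28.2% and 21.9% of all tested genes. Bnip3, a mitophagy receptor related to the BH3-only proteins, fell from 96.4 ± 7.50 to 37.3 ± 5.48 FPKM (−1.35). Aifm1, which encodes apoptosis-inducing factor, fell by 0.36 on the log2 scale, and Fis1, a fission receptor, fell by 0.25. Oma1, a stress-activated protease, rose by 0.32, but did not pass without DMSO replicate 1, 2 or 3 or DHTS replicate 2, which left 0 of the 18 higher.

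On the list of the apoptosome, caspases and inhibitors of apoptosis, 6 of 11 genes rose and 1 fell (median 0.18). The 6 include Casp8 (0.23, adjusted p = 0.015), whose protein acts before the pore by cutting BID, and the inhibitor gene Birc5. The shares over all tested genes were 28.2% and 21.9%, here and for both lists that follow. Apaf1, the scaffold that cytochrome c assembles into the apoptosome, went from 11.8, 11.04 and 12.6 FPKM to 34.6, 35.9 and 40.5 FPKM (log2 fold change 1.57, SE 0.08, adjusted p = 6.4e-06). Casp6, an executioner caspase, rose by 0.41 (adjusted p = 0.00045). Birc3, an inhibitor of apoptosis, fell by 1.03 (adjusted p = 0.02), but did not pass when DMSO replicate 1 or DHTS replicate 3 was left out. Of the other inhibitor genes on the list, Birc5 rose by 0.18 (adjusted p = 0.004), and Xiap (0.04) and Birc2 (0.00) did not pass.

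Genes whose proteins bind or mark BCL2 family proteins numbered 19 tested, of which 6 rose and 3 fell (median 0.00). Nr4a1, a nuclear receptor that can bind BCL2 at mitochondria, rose from 7.52 ± 0.675 to 23.9 ± 1.43 FPKM (1.55). Mapk9, a stress kinase, rose by 0.72, while Mapk8, another on this list, fell by 0.38 (adjusted p = 0.016). Fbxw7, which marks MCL1 for degradation, and Usp9x, which removes such marks, rose by 0.49 and 0.38. The lower count was 1 without DMSO replicate 2 or DHTS replicate 2.

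Transcription factors known to act on family genes numbered 11 tested, of which 5 rose and 4 fell (median 0.09). Trp53, the mouse p53 gene, itself went from 143, 147 and 145 FPKM to 238, 231 and 229.6 FPKM (0.68, SE 0.03, adjusted p = 3.7e-06). Foxo3, which can drive Bcl2l11 and Bbc3, rose by 0.82. Atf4, of the integrated stress response, fell by 0.95, and Nfkb1, an NF-kB subunit, fell by 0.87.

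Over all genes, quantile normalization gave 2559 higher and 3392 lower calls in place of 3218 and 2502. Of the 10 members 4 were higher and 4 lower under it as well.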

How the data were processed

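Gene expression was measured by RNA sequencing of 6 EOMA libraries. Per the submitters' processing notes, the tools were Cuffdiff 2.2.1, Cufflinks, HISAT2 2.0.4 and fastp 0.20.0, and the build mm10. No source used here states their settings or the annotation. The deposited table holds FPKM values, scaled by the authors to transcript length and library size. Its second block is a deposited signal, fragment estimates brought by the authors to a common library size. The estimated fragments given here are that block divided by the value of 1 fragment, inferred for each library as 0.859 to 1.13. Of those above 0, 92.5% to 93.0% lay within 0.1 of a whole number. The rest did not, and no count model was fitted. One row of the table had been emptied and was not analysed here.

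Genes with a mean of at least 1 FPKM were fitted with limma 3.58.1 (R 4.3.3) on log2(FPKM + 1), with treatment as the only term and the trend and robust options. P-values are two-sided and were adjusted over all tested genes by the Benjamini-Hochberg method. SE is limma's moderated standard error, intervals are 95%, and SD is over 3 libraries. Within groups, pairs of libraries differed by more than counting noise (chi-square per degree of freedom 2.64 to 3.34).

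Members and lists were chosen with earlier results of these data known. From each of the 5 other lists, the text names up to 4 tested genes with the largest change past the threshold; 1 such gene is not reported here. Alternatives tried were a replicate block, quantile normalization, median-ratio scaling, a 0.1 pseudocount, a filter at 5 FPKM or none, limma's plain empirical Bayes, scaled fragments (mean of at least 10), and each library left out. Leaving out a locus at 0 in all DMSO libraries, and wider role sums, were added after seeing the data. Bcl2l2, Bad, Mapk8, Casp8, Birc5, Xiap, Birc2, Rpl13 and the markers named were chosen after their values were seen. Positions are from GENCODE M21, counted from 1, and start-site windows from RefSeq. The fit was tested on simulated data in which each gene kept 1 ratio of fragments to FPKM throughout. Shifts of that ratio between libraries, as seen for Bmf, were not simulated.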

Additional observations from a re-analysis of the deposited data

How the results depend on the processing

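Pmaip1, Bbc3, Bax, Mcl1, Bak1, Bcl2 and Bmf kept their direction and stayed past the threshold under every alternative in which they were tested; Bcl2 and Bmf are below a mean of 5 FPKM, which left 2 members lower there. Bcl2l1 passed on scaled fragments (0.25). With 1 library left out its log2 fold change ran from 0.11 to 0.23, and it passed only without DMSO replicate 2. The sign of Bcl2l11 turned under quantile normalization (log2 fold change −0.060), with no call. Same-numbered libraries did not deviate together (r of −0.05, 0.06 and 0.01), so the numbers were not taken as pairs. With a replicate block Bid did not pass (−0.17), 3053 genes were higher and 2384 lower in all, and no other member's call changed. Left-out libraries gave Bid −0.20 to −0.14, and 4 to 5 members higher and 3 to 4 lower.

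In the other BCL2 family genes, 1 was higher on scaled fragments and 0 to 1 with a library left out, and 2 were lower with quantile normalization, with scaling by median ratios, with plain empirical Bayes and on scaled fragments. Of the mitochondrial list, 0 were higher under quantile normalization, 2 on scaled fragments and 0 to 1 with a library left out. Of the apoptosome list, 2 were lower under quantile normalization and on scaled fragments, and 0 to 1 with a library left out. Of the binders, 6 were lower under quantile normalization, 7 on scaled fragments and 1 to 3 with a library left out. The summed pore formers changed by 0.20 on the log2 scale on scaled fragments, against 0.54 in FPKM; that sum is not divided by length. With the other family genes of each role, an alternative chosen after seeing the data, the log2 change was 0.46 for pore formers and 0.70 for BH3-only genes. Leaving out the locus listed at 0 in DMSO, also chosen after seeing the data, gave 3166 higher and 2499 lower calls and changed no member's call. Bmf, Bbc3 and Bcl2, with 39 to 321 estimated fragments per library, are the least deeply covered members. Under the alternatives, 372 values kept their direction and side of the threshold, or stayed within 1.5 times the count or 1 SD. Beyond these, 24 counts or sums moved, 5 values lost their call, 2 gained one and 1 changed sign.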

Other observations

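Trp73, a p53 relative on the list of transcription factors, was picked out after its values were seen. It stood below the filter and was not tested. All DMSO libraries list it at 0, while those with DHTS give 0.902, 1.06 and 1.04 FPKM, from 26, 31 and 33 estimated fragments. Of the 7 genes in its deposited locus, Trp73 and Ccdc27 were listed at 0 with DMSO, and Ccdc27 with DHTS as well. Dffb in the same locus, which encodes the caspase-activated DNase, was also picked out after its values were seen, at 4.18, 4.73 and 6.07 FPKM with DMSO and 22.6, 20.3 and 21.0 FPKM with DHTS. Trp63, the third gene of that family, was listed at 0 in 5 of the 6 libraries. Bik, a BH3-only gene outside the 10, held 7 to 37 estimated fragments per library, and its 95% interval of the log2 fold change ran from −0.95 to 0.79.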
